A study of Homo sapiens with 6 samples.

Results

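The MYC and MYCL loci were examined as the distinct intervals of 4 chromatin immunoprecipitation sequencing (ChIP-seq) peak lists that lie in 2 windows of the hg19 genome. The MYC window ran from 127700000 to 130000000 on chromosome 8 (2.30 Mb) and holds the gene at 128.748 to 128.754 Mb with its flanking desert. The MYCL window ran from 40300000 to 40430000 on chromosome 1 (130 kb) and holds the gene at 40.361 to 40.368 Mb. Together the windows held 202 of the 271093 intervals of the 4 lists, 173 at MYC and 29 at MYCL. The windows are set by position, and were chosen with earlier results of these data known.

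All libraries came from NCI-H526, an established human small cell lung cancer line. The 4 lists were LSD1 in cells given GSK552 and LSD1, H3K4me2 and H3K4me1 in cells given DMSO, the vehicle. The treatment given with the labels is 1 µM GSK2879552, an LSD1 inhibitor, for 24 h, a text that stands with every sample and was taken to describe the GSK552 samples alone. The design sets LSD1 in inhibited cells beside LSD1 in vehicle cells, with the marks mapped in vehicle cells. Each group was 1 library, so differences between GSK552 and DMSO have no replicate check and no p-value, and the 2 input samples and marks under inhibitor were not analysed here. Each peak's fold enrichment and −log10 q were computed by the authors, and a rank or percentile is a peak's place by −log10 q within its own list.

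MYC, MYCL and MYCN are related transcription factors that pair with MAX, bind E-box sequences and drive growth, and small cell lung cancers often amplify a single member of the family. MYCL was first found amplified in small cell lung cancer, and NCI-H526 is known as a line with amplified MYCN. LSD1 (KDM1A) takes methyl groups off H3K4me2 and H3K4me1. H3K4me2 is found at promoters and enhancers, and H3K4me1 is typical of enhancers. The MYC desert is known for enhancers that differ between tissues and act over long distances, and for long noncoding RNA genes. In the RefSeq gene order CASC11 precedes MYC and PVT1 follows it, while MYCL lies between MYCL-AS1 and MFSD2A.

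The 250 bases before the MYCL start are shown because an H3K4me2 interval and, with GSK552, an LSD1 peak covered this start as given to 1 kb. The sequence is from RefSeq on GRCh38.p14, chr1:39901918-39902167, minus strand, read 5′ to 3′, and these positions cannot be set beside hg19 positions. Of the 2 genes, 1 was matched in the promoter table. Capitals mark CACCTG, an E-box known to be bound by repressors of the Snail family.
MYCL: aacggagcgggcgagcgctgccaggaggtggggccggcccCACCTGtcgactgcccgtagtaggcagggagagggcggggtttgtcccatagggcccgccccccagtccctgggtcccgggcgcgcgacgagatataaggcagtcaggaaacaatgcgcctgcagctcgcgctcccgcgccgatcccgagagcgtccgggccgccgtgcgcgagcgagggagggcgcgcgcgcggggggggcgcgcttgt
Searched on both strands, CACCTG had 1 match, from −210 to −205 counted from the start, and 17.5% of the 35116 RefSeq promoters hold it in their own 250 bases. The GC box GGGCGG had 2 matches, beginning at −178 and −155, and 42.6% of promoters hold it. CACGTG, the E-box of MYC and MAX, had 0 matches and stands in 6.34% of promoters. AATC, the core of the GFI1 motif, also had 0 matches and stands in 64.8%. None of these matches overlapped another. The stretch was 74.4% G and C with 35 CG dinucleotides, against a median of 58.0% over all promoters.

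The MYC window was neither dense nor empty in any list. It held 33 LSD1 peaks with GSK552, or 14.3 per Mb (exact Poisson interval 9.88 to 20.1), against 16.3 per Mb in the rest of that list. With DMSO it also held 33 LSD1 peaks, against 14.9 per Mb in the rest of that list. H3K4me2 had 48 intervals in the window (20.9 per Mb, against 26.9 in the rest) and H3K4me1 had 59 (25.7 per Mb, against 31.2). Among the 1242 other windows of the same length that held any interval, between 42.4% (H3K4me2) and 52.8% (LSD1 with DMSO) had fewer intervals. The Poisson intervals and the Wilson intervals used below are at 95%, cover counting error only, and treat neighbouring intervals as independent, which they are not.

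**Figure D1:**
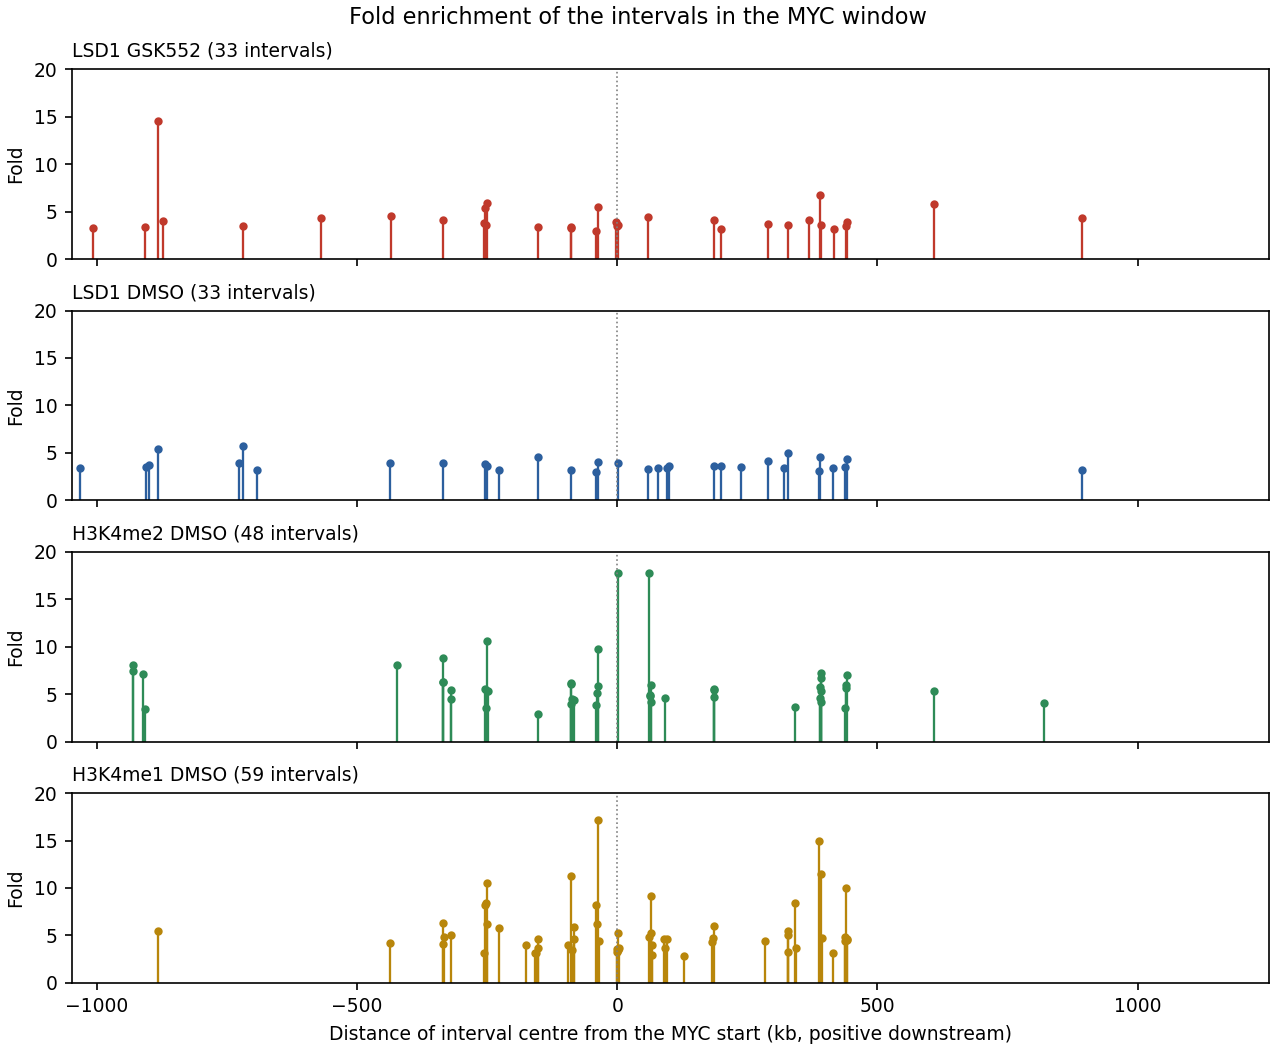
Fold enrichment (y axis) of each interval in the MYC window by the distance of its centre from the MYC start in kb (x axis; dotted line, the start), 1 panel per list and 1 library per panel. The tallest LSD1 peak, at fold 14.5, stands at −882 kb in the GSK552 panel, while the H3K4me2 panel is led by intervals at the gene and at 60.1 kb with fold 17.8 each, and H3K4me1 lies between −882 and 442 kb with a single interval at the far left.

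The intervals stood in separate groups across the desert. Of 23 bins of 100 kb, 16 held an interval of any list, and a single bin held 30 intervals. Within 500 kb of the gene the density was higher, at 24.9 LSD1 peaks per Mb with GSK552 and 24.9 with DMSO, 41.7 H3K4me2 and 57.7 H3K4me1 intervals per Mb. H3K4me1 was the most confined, with 1 interval more than 500 kb upstream and 0 more than 500 kb downstream. LSD1 reached farther out, with 6 peaks (GSK552) and 7 peaks (DMSO) more than 500 kb upstream. The longest stretch between intervals ran for 211 kb, from 608 to 820 kb downstream of the start, and no interval lay in the last 358 kb of the window.

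At the MYC gene itself H3K4me2 was strong and broad, while LSD1 and H3K4me1 were modest. The H3K4me2 interval ran from 128746101 to 128751342, 5242 bp, and ranked 1107 of 81619 with a fold of 17.8 and a −log10 q of 59.6. Its summit lay at −0.0910 kb, at the start to within the 1 kb to which the gene's position is given. Fold and p of this summit correspond to a pileup of 63 fragments over a background of 2.60. The interval covered all of the 2000 bp centred on the start and 55.7% of the gene.

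LSD1 was found at the MYC start in both conditions, in fewer bases with GSK552. With GSK552 it formed 3 peaks at and near the start, at 128746285 to 128746454 (fold 3.87), 128747524 to 128748641 (fold 3.50) and 128749251 to 128749576 (fold 3.54), of 1614 bp in all. With DMSO it formed 1 peak of 2804 bp, from 128747407 to 128750210, with a fold of 3.98. The last 2 GSK552 peaks lay on the DMSO peak with −log10 q of 2.38 and 2.26, and the DMSO peak had 2.94. The first GSK552 peak, with 4.34, had no DMSO peak on it. All 4 lay on the H3K4me2 interval.

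H3K4me1 was broken into 6 short intervals along the H3K4me2 interval. The highest had a fold of 5.23 and a pileup of 18 fragments and lay downstream of the start, at 128749073 to 128750099. The other 5 had folds from 3.24 to 3.69, between percentiles 3.06 and 38.1 of the list. H3K4me1 covered 33.4% of the 2000 bp centred on the start as given to 1 kb. None lay on that position, between an interval that ended at 128747722 and the next, which began at 128748602.

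**Figure D2:**
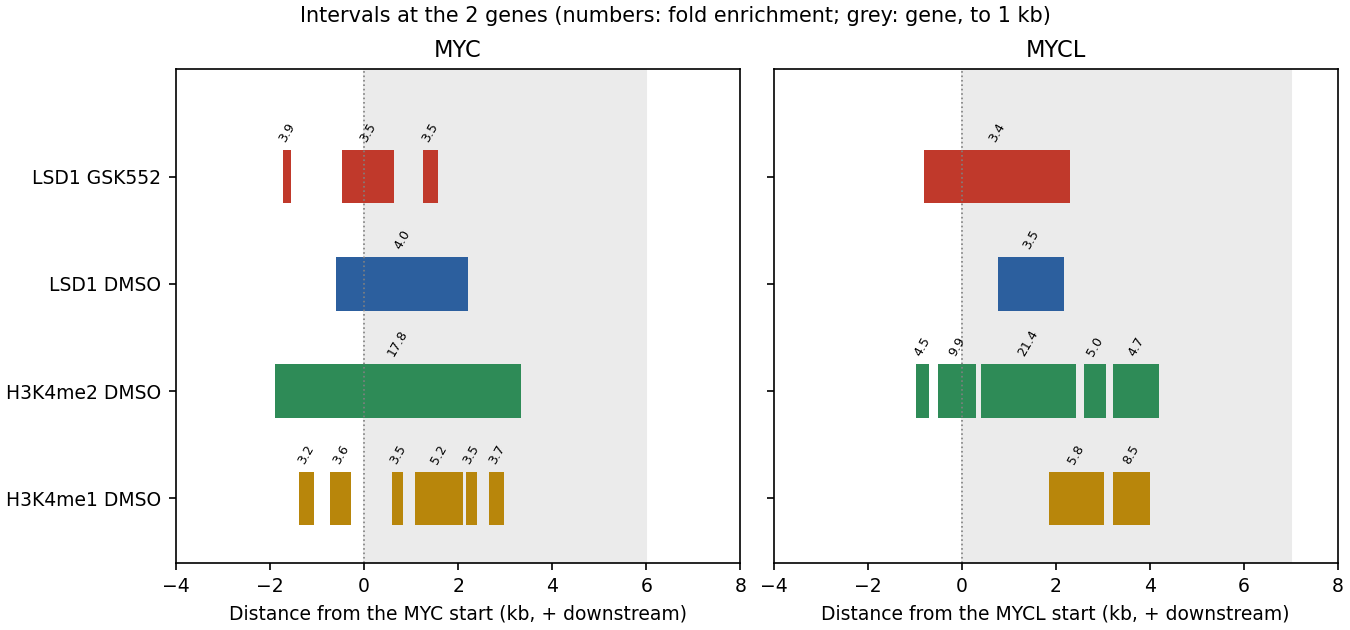
Intervals of the 4 lists at MYC (left) and MYCL (right), drawn to scale by distance from the start in kb in the direction of transcription (x axis), 1 row per list, with each interval's fold above it and the gene shaded. A single H3K4me2 interval of 5242 bp spans the MYC start, whereas at MYCL 5 H3K4me2 intervals lie side by side and H3K4me1 stays downstream of the start.

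The highest-ranked LSD1 peak of the whole GSK552 list lay in the MYC desert, at −882 kb. It ran from 127865835 to 127866205, spanned 371 bp, and ranked 1 of 49597 with a fold of 14.5 and a −log10 q of 37.1. With DMSO the site carried a peak of 600 bp, from 127865595 to 127866194, with a fold of 5.45 and a −log10 q of 9.20, rank 731 of 45188. Both peaks overlapped an H3K4me1 interval at 127866106 to 127866676 (fold 5.48) and neither overlapped H3K4me2. The fold and p of the GSK552 peak, averages over the peak, correspond to a pileup of about 42.8 over a background of 2.02, and those of the DMSO peak to about 23.4 over 3.47. The implied background was thus 1.19 times the list median with GSK552 and 2.59 times with DMSO, and the part of that difference and of the different widths in the folds was not tested. Each of the 10 highest-ranked GSK552 peaks had a DMSO peak on it, as did 58.1% of the whole list, at DMSO ranks from 1 to 731, and the MYC desert site was the one at 731. Of these 10 peaks 2 lay on H3K4me2, 3 on H3K4me1 alone and 5 on neither mark, beside 52.9% of the whole list on H3K4me2, and 9.49% on H3K4me1 alone and 37.6% on neither among peaks outside the MYC window.

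Within the MYC window, the next highest-ranked LSD1 peaks with GSK552 lay nearer to MYC and overlapped both marks. At 389 kb downstream, GSK552 had a peak of 1887 bp from 129136214 to 129138100 (fold 6.78, rank 324). The DMSO list had 2 peaks there, of 712 bp (fold 3.07) and 1041 bp (fold 4.55, rank 1613). The H3K4me1 interval at 129135052 to 129137452 was among the strongest of the window, with a fold of 15.0 and a pileup of 59 fragments, while the highest H3K4me2 fold in this group was 7.21. At −37.8 kb, LSD1 had a fold of 5.45 with GSK552 (rank 2046) and 4.06 with DMSO (rank 6961). An H3K4me1 interval overlapped by both peaks, at 128710509 to 128712018, had the highest H3K4me1 fold of the window, 17.2, with a pileup of 57. H3K4me2 folds in that group reached 9.73. The other H3K4me1 interval among the 3 highest-ranked lay at 128657912 to 128659728, −89.2 kb, with a fold of 11.3 and a pileup of 42, and 2 GSK552 peaks and 1 DMSO peak of LSD1 overlapped it. Folds of different antibodies are not on a common scale.

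Within the MYC window, the group around −253 kb was the GSK552 cluster with the most LSD1 peaks. Peaks were joined over the gap commonly used to stitch enhancers. It held 4 LSD1 peaks with GSK552, over 7.98 kb, and 2 with DMSO, over 6.67 kb, and 8 DMSO clusters of the window held 2. With gaps of up to 25 kb the GSK552 cluster of the window with the most peaks was another one, with 6 from 129116367 to 129189509. In the −253 kb group the widest LSD1 peak, centred at −250 kb, was 2578 bp with GSK552 (fold 5.90, −log10 q 7.69). With DMSO it was 2434 bp (fold 3.63, −log10 q 2.5). Its neighbour at −255 kb had a −log10 q of 7.00 with GSK552 and 2.60 with DMSO. H3K4me2 had 5 intervals here, led by one at 128497138 to 128498517 with a fold of 10.6, and H3K4me1 had 5 with folds up to 10.5, which covered 3537 and 6663 bp. Each of the 12 groups in the window that held all 4 lists lay between −430 and 440 kb of the start.

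A site 60.1 kb downstream had H3K4me2 values equal to those at MYC. Its H3K4me2 interval ran from 128806076 to 128810203, 4128 bp, with the same fold of 17.8, the same −log10 q of 59.6 and the same pileup of 63 fragments, and a summit at 59.6 kb. The LSD1 peak on it was 2140 bp with GSK552 (fold 4.43, −log10 q 4.93) and 1298 bp with DMSO (fold 3.35, −log10 q 2.13). H3K4me1 overlapped this interval only at its far end, in 1 interval that began at 128809194, and continued beyond it as an interval of 3338 bp with a fold of 9.19. PVT1 is the gene that follows MYC, but its hg19 position was not in the files used here, so the site was not assigned to it.

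LSD1 peaks of the MYC window were overlapped by a peak of the other condition at shares near those of the rest of either list. With the full lists and at least 1 shared bp, the difference intervals included 0, but this depended on the q cutoff. Of the 33 GSK552 peaks, 22 were overlapped by a DMSO peak (66.7%, Wilson interval 49.6 to 80.2%), beside 58.1% of the whole list. Of the 33 DMSO peaks, 22 were overlapped by a GSK552 peak (66.7%), beside 63.2% of the whole list. With a reciprocal overlap of 50% both shares were 39.4% (13 of 33), beside 30.4% of GSK552 peaks and 33.3% of DMSO peaks in the rest of the lists. The peaks formed 23 overlapping pairs, and which condition was higher depended on the measure. The −log10 q was higher with GSK552 in 16 pairs, 1 of which is equal at the digits kept, and with DMSO in 7. Fold was higher with GSK552 in 12 and with DMSO in 11, and the percentile within the list with GSK552 in 11 and with DMSO in 12. The lists differ in length and in their range of q, so a percentile shows a peak's place in its list and no change. By all 3 measures, 10 pairs were higher with GSK552 and 7 with DMSO. The pair at −719 kb, without either mark, had a −log10 q of 2.64 with GSK552 (fold 3.53) and 5.74 with DMSO (fold 5.77, rank 2419). The pairs at −152 and 329 kb were also among the 7, with −log10 q of 2.00 and 2.33 with GSK552, and 3.81 and 4.45 with DMSO. The pairs at −255, −250, 59.2 and 894 kb were among the 10.

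**Figure D3:**
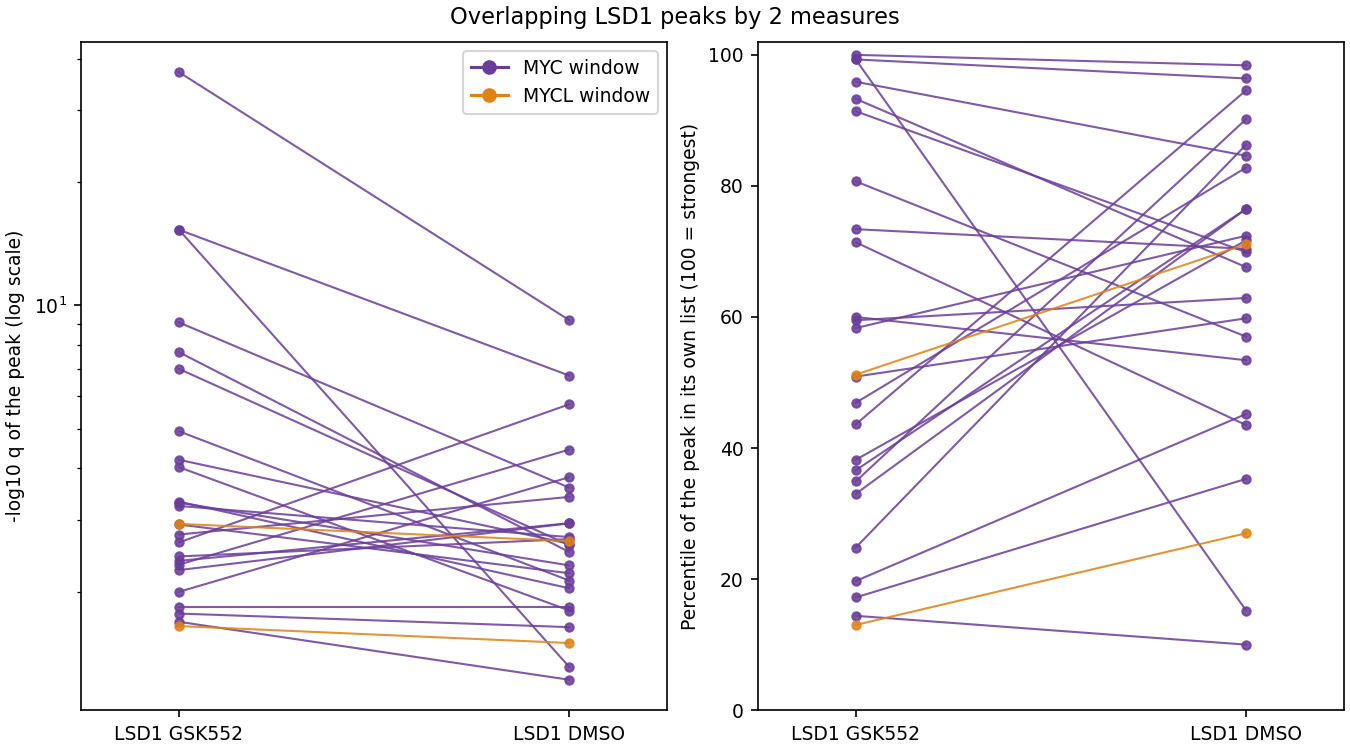
Overlapping LSD1 peaks with GSK552 (left end of each line) and DMSO (right end), by −log10 q (left panel, log scale) and by percentile within the peak's own list (right panel, 100 is the strongest), with a line for each of the 23 pairs at MYC and 2 pairs at MYCL, n = 1 library each. Lines run in both directions at MYC, and the 2 MYCL pairs are higher with GSK552 by −log10 q (2.93 against 2.66, and 1.65 against 1.50) but lower by percentile.

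Peaks found in only 1 of the LSD1 lists were mostly short, as they were in the whole lists. There such peaks had median widths of 261 bp with GSK552 and 333 bp with DMSO, against 524 and 585 bp for overlapped peaks. With GSK552, 11 peaks had no DMSO peak on them and had a median width of 197 bp, folds from 3.20 to 5.75 and −log10 q from 1.5 to 5.85. The strongest, at 129356251 to 129356427 (608 kb, fold 5.75), lay on an H3K4me2 interval. With DMSO, 11 peaks had no GSK552 peak on them and had a median width of 267 bp, folds from 3.14 to 3.89 and −log10 q from 1.13 to 2.14. H3K4me2 was under 4 of the 11 GSK552-only peaks, beside 40.0% of such peaks in the whole list. It was under 0 of the 11 DMSO-only peaks, beside 29.2% in the whole list. The upper limit for this 0, approximated as 3 of 11, was 27.3% and so close to the share of the whole list. DMSO-only peaks on H3K4me1 lay at −228, 96.3 and 415 kb. The last of these had a GSK552-only peak within 1 kb, so that place was occupied in both lists without overlap.

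In the MYC window H3K4me2 intervals were overlapped by H3K4me1 more often than in the rest of the list, under the rule of at least 1 shared bp. Of 48 H3K4me2 intervals, 40 were overlapped by H3K4me1 (83.3%, 70.4 to 91.3%), beside 63.1% of the whole list, a difference of 20.2 points from the rest of the list (Newcombe interval 7.29 to 28.2). Counted in bases, 66.5% of the H3K4me2 sequence of the window lay under H3K4me1, against 46.0% in the rest of the list. Seen from H3K4me1, 30 of 59 intervals were overlapped by H3K4me2 (50.8%), beside 47.4% of the whole list. With a reciprocal overlap of 50% the difference for H3K4me2 was 1.5 points (−6.48 to 14.4), and with gaps of up to 1 kb allowed it was 11.1 points (−1.5 to 18.4), so it depended on how overlap was counted.

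The share of marked intervals overlapped by LSD1 was also above that of the rest of the lists. H3K4me1 intervals were overlapped by LSD1 in 23 of 59 cases with GSK552 (39.0%, beside 23.8% of the whole list; difference 15.2 points, 3.81 to 28.0). With DMSO, LSD1 overlapped 22 of 59 (37.3%, beside 23.7%; difference 13.6 points, 2.43 to 26.4). H3K4me2 intervals were overlapped in 28 of 48 cases with GSK552 (58.3%, beside 40.8%; difference 17.5 points, 3.45 to 30.3). With DMSO it was 21 of 48 (43.8%, beside 35.4%; difference 8.31 points, −4.74 to 22.3). The window had 12 overlap comparisons in all, with those of LSD1 on LSD1, LSD1 on marks and mark on mark included. The difference interval lay above 0 in 5 of the 12, without adjustment for their number. For H3K4me1 with GSK552 it lay above 0 under each of the 5 alternative settings, and for H3K4me2 with GSK552 under each except a reciprocal overlap of 50% (−2.34 to 16.5) and gaps of up to 1 kb (−5.44 to 19.5). For H3K4me1 with DMSO the difference turned to −2.23 points (−3.63 to 5.07) with a reciprocal overlap of 50%. Under every other alternative setting the interval for H3K4me1 with DMSO lay above 0. Equal list length shortens the GSK552 list alone, so that setting could not change the values of DMSO peaks with the marks. The interval for H3K4me2 with DMSO lay above 0 with the highest-scoring 50% (3.89 to 43.2) and with the stricter LSD1 cutoff on q (8.20 to 35.1). It included 0 under the remaining settings. Comparisons with GSK552 and DMSO use the same histone lists and are not independent of each other.

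Seen from LSD1, more peaks of the window lay on H3K4me1 than in the rest of the lists, but the difference did not hold across settings. With GSK552, 19 of 33 peaks overlapped H3K4me1 (57.6%, beside 39.5% of the whole list; difference 18.1 points, 1.32 to 33.3), and this interval included 0 under 4 of the 5 alternative settings. With DMSO, 18 of 33 did (54.5%, beside 41.5%; difference 13.0 points, −3.56 to 28.6). H3K4me2 was overlapped by 19 of 33 peaks with GSK552 (57.6%, beside 52.9%) and by 14 of 33 with DMSO (42.4%, beside 50.4%). Both marks were present at 15 GSK552 and 13 DMSO peaks (45.5% and 39.4%, beside 30.0% and 31.7% of the rest of the lists), and neither at 10 and 14 (30.3% and 42.4%, beside 37.6% and 39.8%). H3K4me1 alone was present at 4 GSK552 and 5 DMSO peaks (12.1% and 15.2%, beside 9.49% and 9.84%). H3K4me2 alone was present at 4 GSK552 peaks (12.1%, beside 22.9%) and 1 DMSO peak (3.03%, beside 18.7%). The difference interval of this last class, which rests on 1 of 33 peaks, excluded 0 (−18.2 to −3.38 points), and those of the other 7 did not. These intervals were not adjusted for their number, and the classes are not given under the alternative settings. All 13 DMSO peaks with both marks were overlapped by a GSK552 peak, beside 79.4% of such peaks in the whole list, and 6 of the 14 unmarked DMSO peaks were, beside 44.8%.

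**Figure D4:**
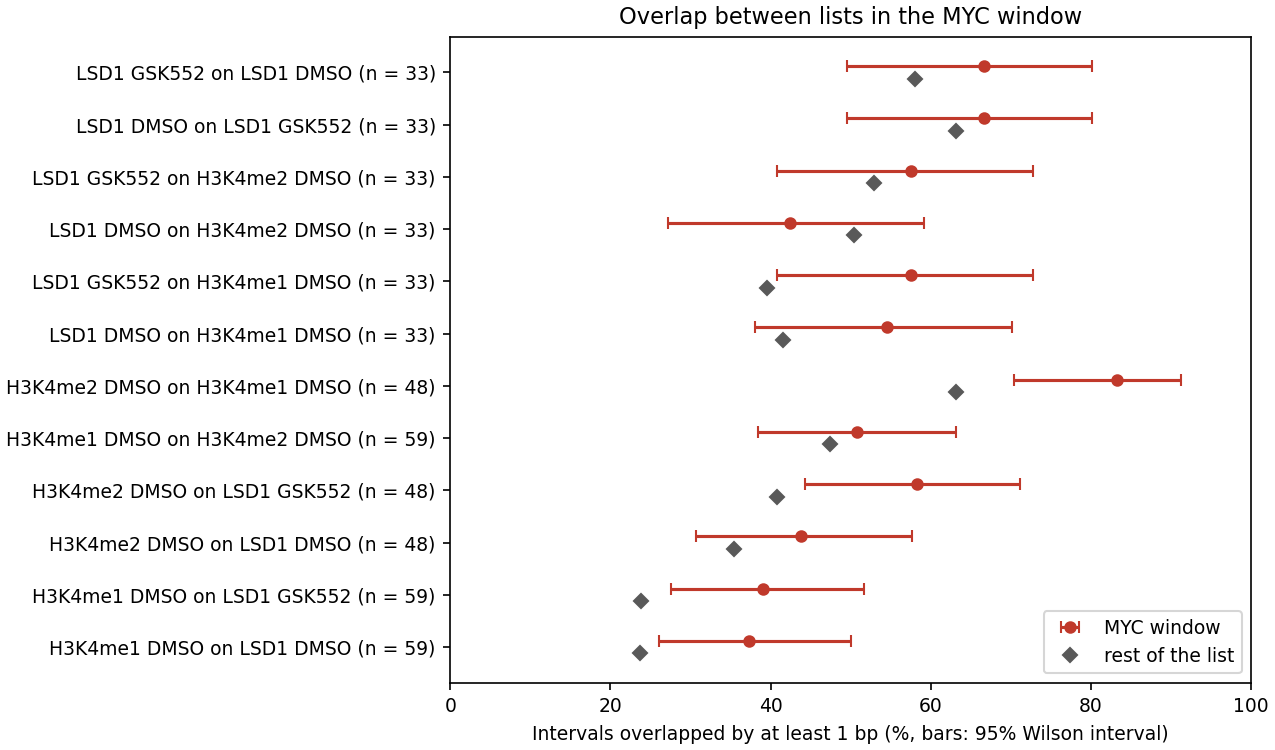
Share of intervals of the first-named list that share at least 1 bp with the second-named list (x axis, %), in the MYC window (circles, with 95% Wilson intervals) and in the rest of the list (diamonds). The circle for H3K4me2 on H3K4me1, at 83.3% against 63.1%, stands farthest to the right of its diamond, and for LSD1 with DMSO on H3K4me2 the circle (42.4%) lies to the left (50.4%).

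At MYCL the promoter also carried H3K4me2 and LSD1, with H3K4me1 on its downstream side. The H3K4me2 interval at 40365568 to 40367585 ranked 354 of 81619, with a fold of 21.4 and a pileup of 71 fragments. Its summit lay 0.898 kb downstream of the start, whose position is given to 1 kb only. A second interval of 798 bp, at 40367699 to 40368496 over the start as given, had a fold of 9.92 and a pileup of 54. Another 3 intervals with folds from 4.47 to 4.98 flanked them. H3K4me1 had 2 intervals, at 40364001 to 40364774 (fold 8.51, percentile 93.3) and 40364982 to 40366148 (fold 5.75). It covered 0% of the 2000 bp centred on the MYCL start and 33.4% of those centred on the MYC start.

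LSD1 at the MYCL start was wider with GSK552 than with DMSO. The GSK552 peak ran from 40365693 to 40368800, 3108 bp, and the DMSO peak from 40365821 to 40367223, 1403 bp. The fold was 3.43 with GSK552 and 3.52 with DMSO, and the −log10 q was 2.93 with GSK552 and 2.66 with DMSO. The DMSO peak lay wholly inside the GSK552 peak. LSD1 covered 1800 bp of the 2000 bp around the start, as given to 1 kb, with GSK552 and 223 bp with DMSO. At MYC the order was the other way, with 1118 bp covered with GSK552 and 1594 bp with DMSO. The LSD1 lists reach down to a −log10 q of 1.01 with GSK552 and 1.00 with DMSO, and bases outside a peak are not shown to lack LSD1.

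The MYCL window held further marked sites away from the gene. In all it had 4 LSD1 peaks with GSK552, 4 with DMSO, 9 H3K4me2 and 12 H3K4me1 intervals, in 4 groups that each held all 4 lists. The median count over 18086 other windows of 130 kb that held any interval was 2 LSD1 peaks in either list and 3 intervals of either mark. The strongest H3K4me2 interval lay at 40420389 to 40422460, with its centre at −53.4 kb (fold 19.6, rank 264, pileup 80). LSD1 was on it in both conditions, with a fold of 2.90 with GSK552 and 2.92 with DMSO. Another H3K4me2 interval, at 40346609 to 40349110 (fold 16.8), was overlapped by an LSD1 peak of 183 bp with GSK552 (40348985 to 40349167, fold 3.08) and by none with DMSO. The coding neighbours of MYCL in the RefSeq gene order are TRIT1 and MFSD2A, whose hg19 positions were not available here. These sites were therefore not assigned to MYCL or to either neighbour, and they may belong to other genes. No 2 LSD1 peaks of the window lay close enough to be joined in either list. The longest stretch without an interval, 51.3 kb, ran upstream of the gene from 40368967 to 40420242.

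The other LSD1 peaks of the MYCL window were each in 1 list only. With GSK552 a peak at 40311243 to 40311536 had a fold of 3.42 and neither mark, and its implied background of 4.09 times the list median was the highest of the window. With DMSO a peak at 40318043 to 40318844 (fold 3.17) overlapped both marks and a peak at 40336628 to 40336991 (fold 3.18) neither. So 2 of 4 peaks of each list were overlapped by the other list. With 4 peaks a list, 3 on H3K4me2 in each condition, and 2 with GSK552 and 3 with DMSO on H3K4me1, the shares are too few to set beside the whole lists. Of the 9 H3K4me2 intervals, 5 carried LSD1 with GSK552 and 3 with DMSO, beside 40.8% and 35.4% of the whole list, and 6 overlapped H3K4me1, beside 63.1%.

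Neither locus stood on a strongly raised background. In the MYC window the background implied by fold and p, as a multiple of the median of its list, had a median of 1.17 for LSD1 with GSK552, 1.14 for LSD1 with DMSO, 1.11 for H3K4me2 and 1.40 for H3K4me1. In the MYCL window it was 1.94, 1.66, 1.5 and 1.59. The longest stretch of raised background in the genome, at chromosome 2 from 15244767 to 16411346, was found by its background and had medians of 25.2, 21.4, 22.5 and 23.7 in the same order. None of the 202 intervals at MYC or MYCL was above 6 times its list median, and the highest, 4.50, was an H3K4me2 interval in the MYC window. Such values were rare in the whole lists too, so the absence of any among 202 intervals says little. They were found in 162 of 49597 LSD1 peaks with GSK552 and 181 of 45188 with DMSO, and in 108 of 81619 H3K4me2 and 189 of 94689 H3K4me1 intervals. Copy number was not measured here, and a small gain of either locus was not tested.

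**Figure D5:**
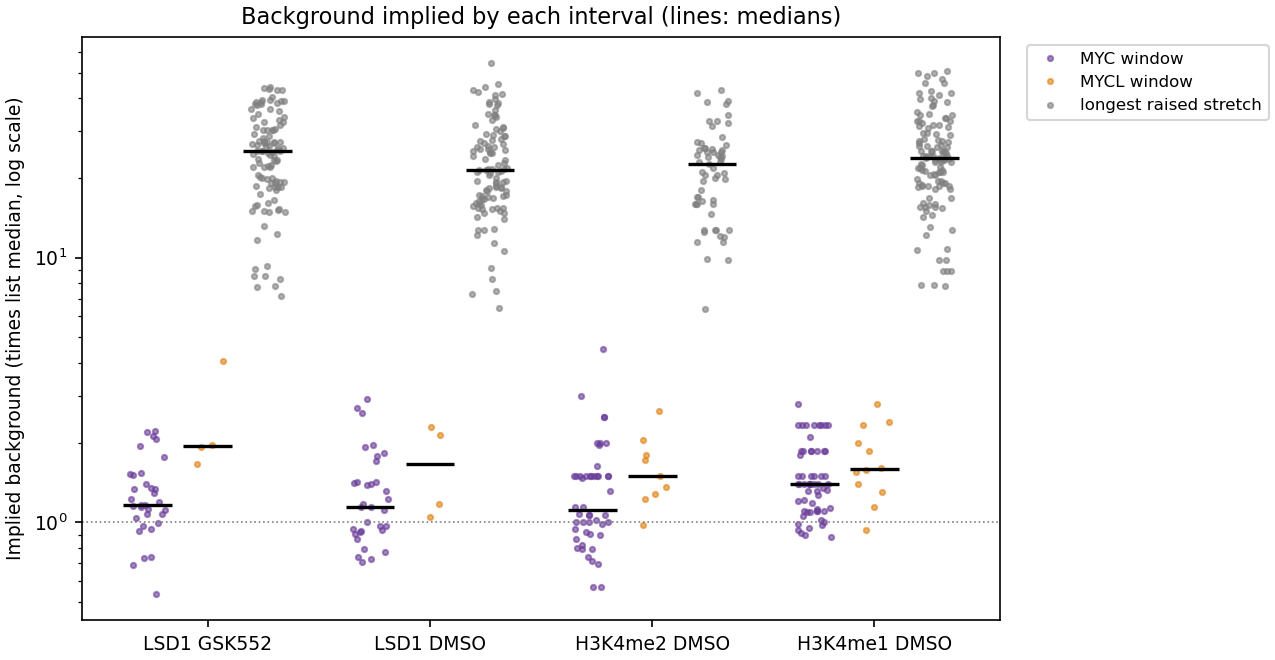
Background implied by each interval's fold and p, as a multiple of its list's median (y axis, log scale), for the MYC window, the MYCL window and the longest raised stretch on chromosome 2, by list (x axis; 1 point per interval, black lines are medians). Points at MYC and MYCL lie at or below 4.50, and those of the chromosome 2 stretch at 6.39 or more. That stretch was selected as intervals above 6 times the list median, which sets its lower bound.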

How the data were processed

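ChIP-seq peak lists of 4 libraries were used, and groups were taken from the sample descriptions. BWA, Picard and MACS2 2.0 on hg19 are named in the submitters' processing notes; the sources used here do not state the depth, which input served as control or how duplicates were handled. The deposited lists have the MACS2 layout, with a score, a fold enrichment (ratio over local background), −log10 p and −log10 q for each peak, all by the authors. LSD1 lists are broad-peak lists with values averaged over a peak, and histone lists are narrow-peak lists with several summits an interval, so widths and overlaps differ between the kinds.

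Histone rows were reduced to distinct intervals, 81619 for H3K4me2 from 178083 rows and 94689 for H3K4me1 from 175135 rows, keeping the summit with the highest −log10 q. Overlap meant at least 1 bp. Positions are 1-based. Other windows tiled chromosomes 1 to 22 and X, whose length was taken as the last interval end. Pileup and background were solved from fold, with a pseudocount of 1, and the Poisson p. The pileup was a whole number within 0.01 for 100% of the histone intervals, 2.23% of LSD1 peaks with GSK552 and 6.73% with DMSO, so LSD1 pileups are approximate. Raised stretches were runs of at least 10 intervals above 6 times the list median. The overlap search and the solution for background were tested on simulated data. MYC was taken as transcribed from the plus strand. The RefSeq tables are on GRCh38 and were used for names, gene order, the MYCL strand, the printed sequence and the motif and GC shares over promoters.

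Named intervals were those within 5 kb of either gene, the 3 highest-ranked of each list in the MYC window, every LSD1 peak in the MYCL window, the LSD1 cluster with the most peaks and the longest stretch without an interval. The overlapping pairs, one-list-only peaks and groups described beside these, the 2 other H3K4me2 intervals at MYCL and the comparison with the 10 highest-ranked GSK552 peaks were chosen after their values were seen. Alternatives were the overlap rule, list cutoffs, the joining gap and a narrower window. The windows and measures were chosen with earlier results of these data known. Python 3.11.15, numpy 2.4.6, scipy 1.17.1 and matplotlib 3.10.9 were used.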

Additional observations from a re-analysis of the deposited data

How the results depend on the processing

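No paired analysis was possible because a group holds 1 library only. The direction and calls of a test do not apply here, so values are given where they moved by more than their counting interval, and the cause was not tested. A reciprocal rule can only lower a share and an allowed gap can only raise it, so such moves alone are no result about the windows. With a reciprocal overlap of 50%, shares at MYC were 39.4% for LSD1 with GSK552 on DMSO and 39.4% for DMSO on GSK552 (rest of the lists 30.4% and 33.3%). LSD1 on H3K4me2 was 18.2% with GSK552 and 15.2% with DMSO (rest of the lists 13.5% and 14.2%). LSD1 on H3K4me1 was 21.2% with GSK552 and 3.03% with DMSO (rest 6.35% and 8.23%). H3K4me2 on H3K4me1 was 16.7% (rest 15.2%) and H3K4me1 on H3K4me2 13.6% (rest 13.1%). H3K4me2 on LSD1 was 6 of 48 (13%) with GSK552 and 10.4% with DMSO (rest 8.20% and 7.85%). At MYCL LSD1 on H3K4me1 was 0% with GSK552 and 25% with DMSO, H3K4me2 on H3K4me1 11.1%, H3K4me1 on H3K4me2 8.33% and H3K4me2 on LSD1 with GSK552 22.2%.

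With gaps of up to 1 kb, H3K4me1 on H3K4me2 was 69.5% and H3K4me2 on LSD1 with DMSO 64.6% at MYC (rest of the lists 66.3% and 54.0%). At MYCL, LSD1 on H3K4me1 was 100% in both conditions and H3K4me2 on LSD1 with GSK552 88.9%. With a −log10 q minimum of 2 for LSD1, LSD1 with DMSO at MYC lay on GSK552 in 94.4%, on H3K4me2 in 66.7% and on H3K4me1 in 72.2%. The rest of the list had 73.4%, 56.7% and 49.4%. At MYCL all 3 shares were 100% (1 of 1 peak), and H3K4me2 on LSD1 with DMSO was 11.1%. With the highest-scoring 50% of each list these 3 shares at MYCL were again 100% of 1 peak, or 7.69 peaks per Mb. Leaving out 50% of each list lowers densities by design, so their fall is no result about the windows. Densities at MYC were then 7.39 (LSD1 with GSK552), 8.26 (LSD1 with DMSO), 9.13 (H3K4me2) and 10.9 (H3K4me1) per Mb. Within 500 kb of MYC they were 24.9, 24.9, 41.7 and 57.7 per Mb. Joined over 25 kb, the LSD1 cluster with the most peaks held 6 with GSK552 and 4 with DMSO at MYC, and 2 with GSK552 and 2 with DMSO at MYCL. LSD1 lists of equal length and gaps of up to 5 kb moved none of their values. Equal length shortens the GSK552 list alone, so values of the DMSO list with the marks could not move.

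Of 12 differences between the MYC window and the rest of the list, 5 intervals excluded 0 as reported, 2 with a reciprocal overlap, 2 with gaps of up to 1 kb, 6 with the highest-scoring 50%, 4 with equal lists and 7 with −log10 q of 2 or more. Equal lists and the q cutoff leave the histone lists as they are, so mark on mark could not change there. Comparisons of DMSO peaks with the marks could not change with equal lists, and these counts include such fixed outcomes. Applying the settings to these differences, and counting bases, was chosen after seeing the data. Depth was not known, and a missing peak is not shown to be an absent signal.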
